A study of Mus musculus with 10 samples.

Results

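RNA captured on the ribosomes of D2-receptor cells was compared with the RNA of the whole striatum they came from, in mice that had self-administered saline. The comparison used 4 of the 10 libraries of the series, the 3 saline immunopurified (IP) libraries, replicates 1, 2 and 4, and the 1 saline input library. All came from adult mice of the line Drd2-TRAP CP101, in which the ribosomal protein Rpl10a is fused to EGFP wherever the D2 dopamine receptor gene is active. The labels name medium spiny neurons as the cell type. These mice took part in a short-access intravenous self-administration experiment with saline. A second set of 6 libraries of the same line, 5 IP libraries and 1 unbound library after cocaine self-administration, is given beside the saline values where it helps.

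In translating ribosome affinity purification (TRAP), an antibody against EGFP pulls tagged ribosomes out of a tissue homogenate together with the messenger RNAs they hold. The striatum is built mainly of medium spiny neurons of the direct pathway, which use the D1 receptor, and of the indirect pathway, which use the D2 receptor, the adenosine receptor Adora2a and the opioid precursor gene Penk. Cholinergic interneurons also use the D2 receptor gene, and the tissue holds other interneurons, glia and vessels. The input holds RNA of all of these, D2 cells included, so a ratio of IP to input compares a part with a whole that contains it. No IP from mice without the tag was analysed here, and the labels do not say whether the libraries came from separate animals or pools. With 1 input library no test was possible, so a gene is called higher or lower only when each of the 3 IP libraries differed from the input by at least 2-fold in the same direction. Levels are reads per 1e+06 gene reads (CPM) after TMM scaling, and ratios are log2 of (IP CPM + 1) over (input CPM + 1), given as the mean of the 3 IP libraries ± SD.

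The IP libraries held 27383303 to 31234994 gene reads and the input 18408782. Reads outside annotated genes came to 13.3% to 14.4% in the IP libraries and 25.5% in the input. Saline IP 1 and 2 were run in lane 7, saline IP 4 in lane 6 and the input in lane 1, so lane and fraction cannot be told apart. Over all measured genes the log2 ratios of IP 2 and IP 4 were closest to each other (Pearson r = 0.954 across genes, which share the input), and those of IP 1 and IP 2 were farthest apart (0.900). Most of the widest disagreements concerned genes that were low in every IP library and lowest in IP 2, which held the lowest value for 26 of the 30 genes with the largest SD. Among these was Trf, the iron carrier transferrin, made in the brain mainly by oligodendrocytes, at 29.4, 3.79 and 18.2 CPM in IP 1, 2 and 4 against 131 CPM in the input.

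Of 32531 genes in the files, 12902 reached a mean of 1 CPM over the 4 libraries and were measured. All 3 IP libraries were at least 2-fold above the input for 211 genes (1.64%) and at least 2-fold below it for 1495 genes (11.6%). Single IP libraries passed the 2-fold mark upward for 491 to 962 genes and downward for 1801 to 1974. The median ratio of all measured genes was 0.13. When libraries were scaled by library size alone, this median moved to -0.09 and 70 genes were higher instead of 211, all of them among the 211. Of the higher genes named below, Gng7, Gnb5, Pde1b, Pde10a, Ppp3cb, Camkv, Rap1gap, Rasd2, Oprd1, Cacnb2, Scg5, Uqcrb, Cox7b, Atp5g3, Zfp804a, Rxrg and Snrpd3 lost their call under that scaling. It also turned the sign of 21 of 117 class medians, so no direction is read from a class median near the all-gene median. The 12902 genes were kept on a mean that includes the input, so a gene low in the IP libraries could enter through the input alone. Of the lower genes named below, Pde8a, Kcnip1, Erbb4, Cacna1g, Cox6a2 and Psmb10 had a mean below 5 CPM. Nothing is read from their calls. For the 10072 genes whose mean was 5 CPM or more, the SD between IP libraries had a median of 0.19, and 76.8% of genes lay on the same side of the input in all 3.

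**Figure D1:**
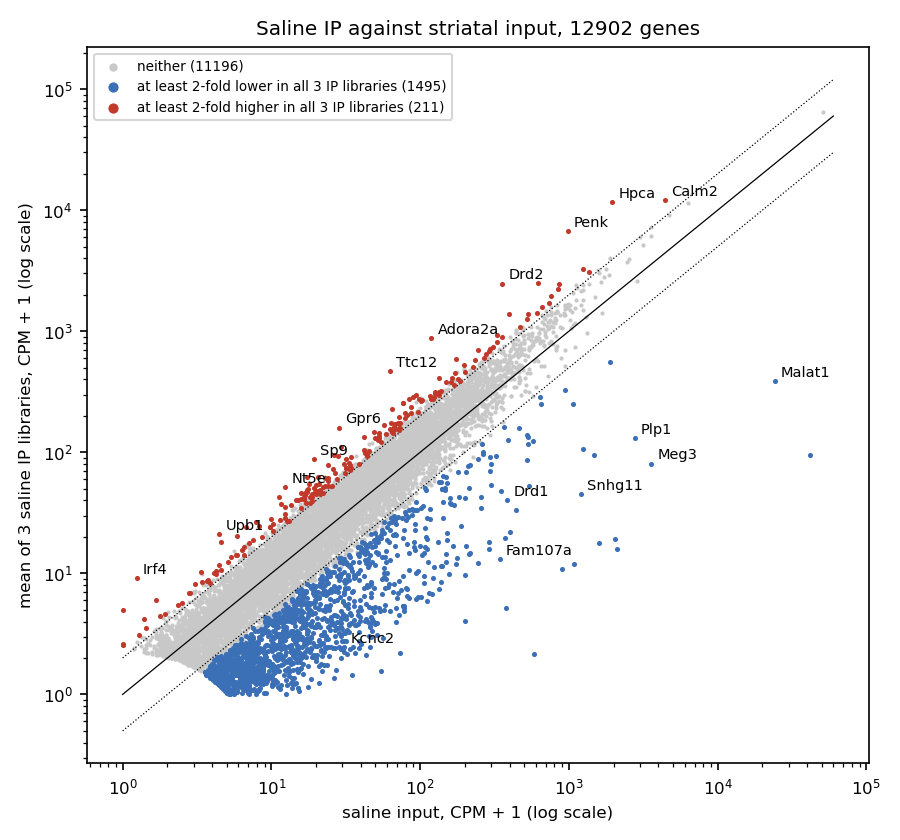
Mean TMM-scaled CPM + 1 of the 3 saline IP libraries against CPM + 1 of the saline input for 12902 genes, both on log scales, with 211 genes called higher in red and 1495 called lower in blue. The solid line marks equal levels and the dotted lines a 2-fold difference. The higher genes follow the upper dotted line at every level with Drd2, Penk and Hpca well above it, while the lower genes spread far below, with Malat1 at the greatest input level among those labelled.

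The 3 genes that mark the line were all called higher. Drd2, the receptor whose regulatory DNA drives the tag (chr9:49340627-49408177, plus strand, protein coding, mm10), stood at 2488, 2695 and 2247 CPM in IP 1, 2 and 4 against 357 CPM in the input, a mean ratio of 2.79 ± 0.13 or 6.91-fold. Adora2a (chr10:75316877-75334784, plus strand) stood at 728, 1132 and 786 CPM against 118, a ratio of 2.86 ± 0.34. Penk (chr4:4133531-4138819, minus strand) stood at 4655, 8366 and 7176 CPM against 981, a ratio of 2.74 ± 0.44. The IP values did not overlap the input for any of the 3, and Penk and Adora2a were lowest in IP 1. Per kilobase of transcript Drd2 ranked 17 among 11895 coding genes in the IP libraries and 144 in the input, with 972 ± 88.1 CPM per kb in the IP libraries.

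The listed markers of other cells went the other way. All 8 direct-pathway markers were called lower, with Drd1 at 42.1, 32.4 and 44.1 CPM against 385 in the input, and the list median was -2.72. All 8 astrocyte markers (median -3.52), all 8 oligodendrocyte markers (-3.99), 7 of 7 measured microglia markers (-2.44) and 6 of 7 interneuron markers that use GABA (-3.20) were lower too. Of all measured genes 11.6% were lower. The microglia list held 0.0084% of input reads and 0.00043% to 0.00099% of IP reads. Its members could thus pass the filter through the input alone, so nothing is read from their calls. The 5 measured markers of cholinergic interneurons, which use the D2 receptor gene themselves, were neither called higher nor lower. Their median was -1.14, and their library medians were -0.64, -1.65 and -1.08 in IP 1, 2 and 4. Slc5a7, the choline transporter, was at -1.23 ± 0.38. Without IP 1, 3 of the 5 were lower, where 1804 of all 13093 genes were. The part of glial RNA in the ratios of other genes was not tested.

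Genes next to the D2 receptor gene were read in the same way, because 1 of them was the highest of all. Ttc12, a tetratricopeptide repeat gene (chr9:49436963-49486225, minus strand), starts from the far side and ends 28.8 kb beyond the 3′ end of Drd2. It stood at 551, 443 and 413 CPM against 61.8 in the input, a ratio of 2.89 ± 0.22. Ankk1, a kinase gene between them at 7.0 kb from Drd2 (chr9:49415194-49427021, minus strand), stood at 39.2, 29.8 and 33.2 CPM against 11.3, or 2.83-fold higher. Both were called higher. Ncam1, the neural cell adhesion gene 94.0 kb away, was at -0.97 ± 0.36 and was not called. On the other side Zw10 (-0.98 ± 0.02) and Usp28 (-0.24 ± 0.14) were not called either. The values in the cocaine IP libraries against their unbound library were 2.79 ± 0.14 for Ttc12 and 0.98 ± 0.16 for Ankk1 (SD, n = 5).

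The stretch upstream of the transcription start is shown for Drd2, whose regulatory DNA drives the tag, and for its neighbour Ttc12, which had the highest mean ratio. Each is the 250 bases before the start in the RefSeq table for GRCm38.p6, the assembly of mm10, read 5′ to 3′ on the gene's own strand. Capitals mark a GC box, the letters GGGCGG on either strand, to which Sp-family factors bind. The Drd2 stretch lies at chr9:49340153-49340402 on the plus strand and the Ttc12 stretch at chr9:49486226-49486475 on the minus strand. The RefSeq start of Drd2 differs from the gene start given above, which is GENCODE's.
Drd2: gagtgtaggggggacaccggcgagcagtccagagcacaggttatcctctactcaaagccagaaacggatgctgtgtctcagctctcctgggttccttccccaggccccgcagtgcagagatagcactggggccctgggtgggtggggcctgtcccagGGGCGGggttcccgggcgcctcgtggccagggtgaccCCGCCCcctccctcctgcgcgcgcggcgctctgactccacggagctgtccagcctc
Ttc12: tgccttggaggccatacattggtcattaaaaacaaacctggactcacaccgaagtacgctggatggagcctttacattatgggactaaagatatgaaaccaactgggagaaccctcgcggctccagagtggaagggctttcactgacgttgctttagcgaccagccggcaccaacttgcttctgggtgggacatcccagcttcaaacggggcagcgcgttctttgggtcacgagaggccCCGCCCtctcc
The Drd2 stretch held 2 GC boxes and the Ttc12 stretch 1. A GC box occurred in 32.7% of the 32851 promoters of the table. Neither stretch held the letters TATAAA, found in 12.4% of promoters. These matches are descriptions of letters only.

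**Figure D2:**
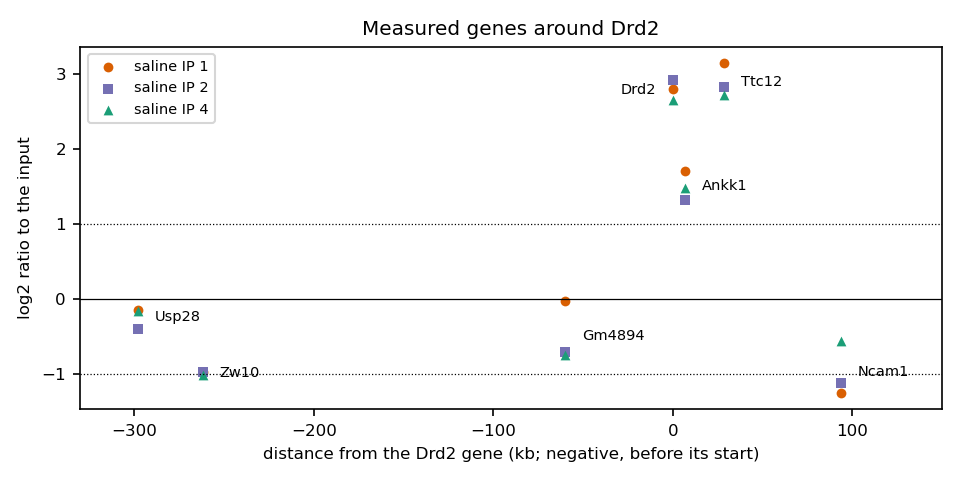
Log2 ratio to the input of the measured genes within 500 kb of Drd2, by distance from the gene in kb, with 1 point for each saline IP library and dotted lines at a 2-fold difference. Drd2, Ankk1 and Ttc12 lie above the upper dotted line in all 3 libraries, while Ncam1, Gm4894, Zw10 and Usp28 lie at or below 0.

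After these values were seen, the same look was taken around the other markers of indirect-pathway neurons that have a position, in a window of 200 kb to each side. Upb1, an enzyme of pyrimidine breakdown, lies 66.3 kb from Adora2a (chr10:75401115-75441679) and stood at 18.1, 20.6 and 21.2 CPM against 3.47 in the input, a ratio of 2.23 ± 0.12. Upb1 lies within Gucd1 on the opposite strand (0.42 ± 0.26, not called), and reads of the pair cannot be told apart without strand. Fig4, a phosphoinositide phosphatase, lies 116 kb from Gpr6 (chr10:41188172-41303260) and stood at 51.7, 53.5 and 55.3 CPM against 16.9, a ratio of 1.61 ± 0.05. Snrpd3, a core splicing protein 183 kb from Adora2a that also overlaps Gucd1, was higher as well (1.33 ± 0.24). Leaving out the neighbours of Drd2, which prompted the look, 3 of 15 measured neighbours of Adora2a, Gpr6, Sp9 and Penk were called higher and 0 lower. That is 20% higher, where 1.64% of all genes were higher and 11.6% lower. None of the 3 higher neighbours lay next to Sp9 or Penk. With so few neighbours and a window set after the values were seen, nothing is read from this count. Specc1l, the gene closest to Adora2a at 4.1 kb, was at 0.03 ± 0.27.

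Other genes with high ratios included a receptor, an enzyme of adenosine production and a calcium sensor. Hpca, the calcium sensor hippocalcin (chr4:129111570-129122036), stood at 13967, 11035 and 9749 CPM against 1958 in the input, a ratio of 2.55 ± 0.26, and it was the third coding gene per kilobase in the IP libraries. Gpr6, an orphan receptor used as an indirect-pathway marker, stood at 115, 211 and 151 CPM against 27.6 (2.44 ± 0.44). Nt5e, the ectonucleotidase that makes extracellular adenosine, had a ratio of 2.01 ± 0.42. For Gpr6 and Nt5e the library with the highest value was IP 2, while Hpca was highest in IP 1.

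Irf4, a transcription factor best known from lymphocytes, stood at 4.32, 13.3 and 6.73 CPM against 0.241 in the input, which rests on 5 reads (95% Poisson interval 0.0782 to 0.562 CPM, counting error only). Plxdc1, a plexin-domain receptor (1.97 ± 0.27), Rerg, a Ras-like growth inhibitor (1.88 ± 0.25), Tpm2, a tropomyosin (1.83 ± 0.08), and Nrgn, the calmodulin-binding neurogranin (1.79 ± 0.13), followed. Pgam2 (1.74 ± 0.20) and Me2 (1.67 ± 0.06), enzymes of glycolysis and malate metabolism, and the forkhead factor Foxo6 (1.68 ± 0.12) were also among the 15 highest genes outside the marker lists.

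**Figure D3:**
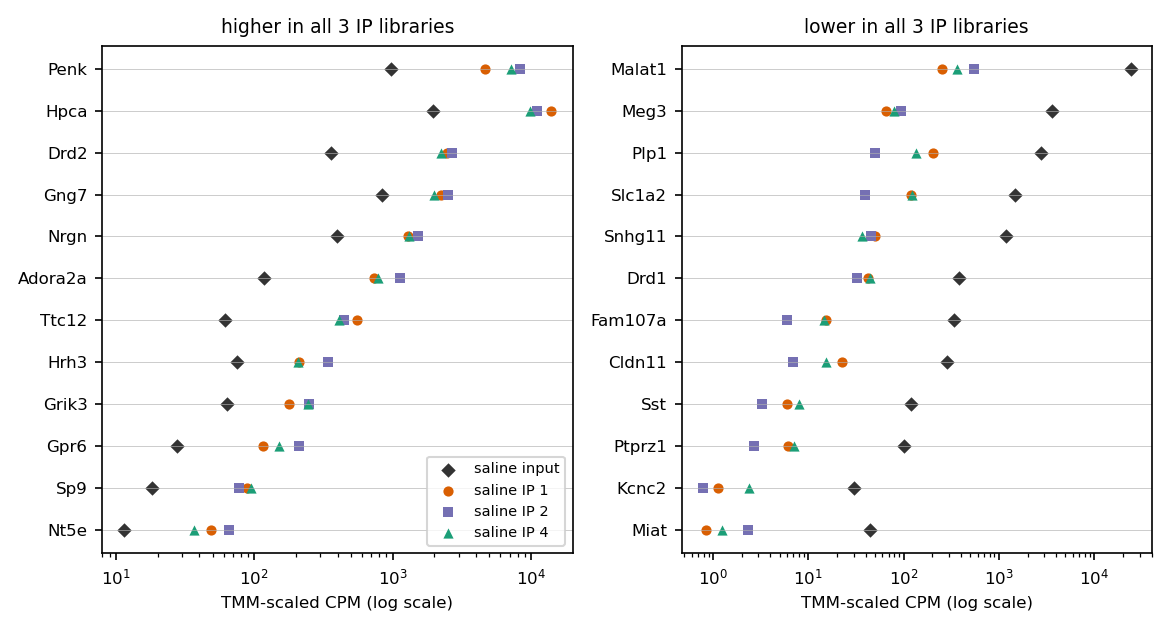
TMM-scaled CPM on a log scale of 12 genes called higher (left) and 12 called lower (right), with a diamond for the saline input and 1 symbol for each of the 3 saline IP libraries. On the left every IP point lies to the right of its diamond, and on the right every IP point lies to its left, with Malat1 at 24128 CPM in the input and 251 to 552 CPM in the IP libraries.

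Signalling genes downstream of the receptors included both higher and lower members in most classes. Among 25 measured G protein subunits 2 were higher and 10 lower, or 8% and 40% where 1.64% and 11.6% of all genes were. Gng7, the gamma subunit that partners the striatal stimulatory alpha subunit, stood at 2251, 2505 and 1981 CPM against 839 in the input (1.41 ± 0.17), and Gnb5, the beta subunit that pairs with RGS proteins, had a ratio of 1.15 ± 0.07. Gng11 (-4.08 ± 0.25) and Gng12 (-3.07 ± 0.37), gamma subunits, were among those lower. The class median was -0.15, with library medians between -0.17 and -0.13.

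Cyclic nucleotide phosphodiesterases, which end cyclic AMP and cyclic GMP signals, were split in the same manner, with 3 of 17 higher and 5 lower. These shares were 17.6% and 29.4%, where 1.64% and 11.6% of all genes were higher and lower. Pde2a (534, 616 and 582 CPM against 231 in the input), Pde1b (1.20 ± 0.11) and Pde10a (1.16) were higher. Pde1a (-2.49 ± 0.90) and Pde8a (-2.76 ± 0.61) were lower. Among 19 calcium-binding sensors 4 were higher and 4 lower (21.1% each) around a median of 0.66. Calm2, 1 of the calmodulin genes, was first of all coding genes per kilobase in the IP libraries at 8255 ± 234 CPM per kb and also in the input at 3030. Its ratio was 1.45. Ncald (-2.61 ± 0.61) and Kcnip1 (-2.39 ± 0.67), sensors of the same superfamily as Hpca, were lower.

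Phosphatase subunits had a median of 0.50 over 53 genes, with 2 higher and 3 lower. These shares were 3.77% and 5.66%, where 1.64% and 11.6% of all genes were, so the lower share was below that of all genes. Ppp1ca, a catalytic subunit of protein phosphatase 1, stood at 445, 432 and 363 CPM against 134 in the input (1.61 ± 0.16). Ppp3cb, a catalytic subunit of calcineurin, had a ratio of 1.31 ± 0.13. Of 13 calcium/calmodulin kinases and partners 2 were higher and 3 lower (15.4% and 23.1%). Camkv, a kinase-like synaptic protein, was at 630, 659 and 647 CPM against 276, with an SD between IP libraries of 0.03 on the log2 scale. Camk2d, the delta isoform, was at 16.1, 7.19 and 16.5 CPM against 102. Rasd2, the striatal Ras-like protein Rhes (1.31 ± 0.17), and Rap1gap (1.20 ± 0.06) were the higher members (5.71%) of 35 Ras and Rap regulators, of which 7 were lower (20%).

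Of 40 measured class A receptors for transmitters and peptides, not counting Drd1, Drd2 and Adora2a, 2 were higher and 13 lower, or 5% and 32.5% where 1.64% and 11.6% of all genes were. Hrh3, the histamine H3 receptor, stood at 211, 340 and 205 CPM against 75.2 in the input (1.69 ± 0.41), and Oprd1, the delta opioid receptor, at a ratio of 1.40 ± 0.18. S1pr1, a sphingolipid receptor (-3.84 ± 0.82), and Ntsr2, a neurotensin receptor (-2.96 ± 0.10), were lower. Grik3, a kainate receptor subunit, was the only higher member of 33 ionotropic glutamate receptors and partners, at 179, 250 and 246 CPM against 64.0 (1.78 ± 0.27), while 4 were lower. Of 16 GABA and glycine receptor subunits 0 were higher and 1 lower. Gabrd, the delta subunit of extrasynaptic GABA receptors, had a mean ratio of 1.25 ± 0.40 but stood at only 0.90 in IP 1 and so was not called.

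Receptor tyrosine kinases had a median of -0.95 over 22 genes, with library medians from -0.88 to -0.78. Of these, 0 were higher and 9 lower (40.9%), where 1.64% and 11.6% of all genes were. Among the lower were Fgfr2, a fibroblast growth factor receptor (7.53, 3.18 and 4.99 CPM against 69.2 in the input), and Erbb4, a neuregulin receptor of interneurons (-2.98 ± 0.42). Among guidance genes, the 29 measured semaphorins, plexins and neuropilins lay at -0.93, with 1 higher and 10 lower (3.45% and 34.5%). Sema6a, a transmembrane semaphorin, was at -3.23 ± 0.38. Slit, Robo, netrin and neurotrophin genes had a median of -0.45 over 22 genes, and ephrins and Eph receptors -0.10 over 17 genes. In the cocaine set these medians were -0.42 for receptor tyrosine kinases and -0.41 for semaphorins and plexins.

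Ion channel classes had medians from -0.47, for 19 TRP, HCN and cyclic nucleotide channels, to 0.28, for 23 calcium channel subunits. Potassium channel subunits and partners had a median of -0.00 over 59 genes (-0.26 with library size scaling), with 1 higher and 10 lower, or 1.69% and 16.9% where 1.64% and 11.6% of all genes were higher and lower. The library medians were -0.28, 0.13 and 0.01 in IP 1, 2 and 4. Kcnk2, a two-pore leak channel, was the higher member at 267, 294 and 252 CPM against 102 in the input (1.40 ± 0.11). Kcnc2, a fast delayed rectifier of interneurons (-3.72 ± 0.48), and Kcnj10, the inward rectifier of astrocytes (-3.48 ± 0.76), were lower. Cacnb2, an auxiliary calcium channel subunit (1.16 ± 0.20), was higher and Cacna1g, a T-type calcium channel (-1.82 ± 0.35), lower, each the single called gene of its direction among 23. Scn4b, a sodium channel beta subunit, stood at 746, 1223 and 949 CPM against 442, with IP 1 at 0.75 on the log2 scale and therefore without a call.

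Several class medians differed between the IP libraries. Saline IP 1 had the lowest median of the 3 for potassium channels, ionotropic glutamate receptors (-0.18, against 0.57 and 0.23 in IP 2 and 4), lysosomal hydrolases and membrane proteins (-0.58, against 0.10 and -0.13) and ion pumps (-0.63, against 0.12 and -0.03). Glycolysis genes (0.59, 0.49 and 0.66), phosphatase subunits (0.58, 0.48 and 0.47) and RNA polymerase genes (0.44, 0.38 and 0.42) did not share this order, while the respiratory chain and cytosolic ribosomal protein medians given below did. For channels and transmitter receptors together the 182 genes had medians of -0.30, 0.20 and 0.03.

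Secreted and matrix genes, as listed here, were among the lowest classes. Of 24 neuropeptide precursors, granins and their processing enzymes, Penk not included, 1 was higher and 13 lower, with a median of -1.43. These shares were 4.17% and 54.2%, where 1.64% and 11.6% of all genes were higher and lower. Penk, not in this list, had a ratio of 2.74, while Sst, also an interneuron marker, is in it. The class values thus depend on this choice of members. Sst, the somatostatin precursor of interneurons, stood at 6.01, 3.29 and 7.93 CPM against 119 in the input (-4.22 ± 0.54), and Npy followed at -4.07 ± 0.35. Pdyn, the dynorphin precursor of direct-pathway neurons, was at -3.55 ± 0.87. Scg5, a chaperone of the processing enzyme Pcsk2, was the higher member (139, 206 and 162 CPM against 66.4). The cocaine set gave a median of 0.27 for this list, over 21 genes. There 2 were higher and 7 lower, where 3.78% and 9.74% of all genes were, and Sst and Npy were at -4.01 and -3.91.

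Proteoglycans and hyaluronan genes had a median of -1.76 over 20 genes, with 0 higher and 12 lower (60%). Collagens and laminins lay at -1.07 over 16 genes, with 0 higher and 7 lower (43.8%). Of all measured genes 1.64% were higher and 11.6% lower. The collagen and laminin list held 0.050% of input reads and 0.0088% to 0.013% of IP reads. Genes of this list and of the proteoglycan list could pass the filter through the input alone, so nothing is read from their calls. In the cocaine set the medians were 0.10 for collagens and laminins over 13 genes and -1.20 for proteoglycans over 17 genes. Sdc4, a syndecan, stood at 0.747, 0.894 and 1.39 CPM against 28.2 in the input. Sparc, a matrix glycoprotein, was at -3.76 ± 0.65. Of 17 aquaporins, connexins and claudins 0 were higher and 10 lower (58.8%) around a median of -2.23. Of 10 immune surface genes, the measured part of 40 listed, 0 were higher and 8 lower (80%) around -1.99. The immune list held 0.0092% of input reads and 0.0024% to 0.0025% of IP reads. Its genes could thus pass the filter through the input alone, so nothing is read from their calls. Gjc3, a glial connexin (-4.44 ± 0.52), and Cldn11, the tight junction protein of myelin (-4.32 ± 0.81), were the lowest of both classes. Beside these, the astrocyte marker medians were -3.05, -3.87 and -3.33 in IP 1, 2 and 4 and the oligodendrocyte marker medians -3.51, -4.77 and -4.06, and their part in these classes was not tested.

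Genes of the mitochondrial respiratory chain were the classes with the highest medians among those that mark no cell type. All 37 measured subunits of complex I, which takes electrons from NADH, had a mean ratio above 0, from 0.72 for Ndufab1 to 1.69 for Ndufa1. Ndufs4 stood at 310, 296 and 254 CPM against 88.5 in the input (1.68 ± 0.15). The class median was 1.08 ± 0.29 (SD of the library medians, n = 3), or 0.79, 1.37 and 1.01 in IP 1, 2 and 4. In every library 7 of 37 (18.9%) were at least 2-fold higher, where 1.64% of all genes were. IP 1 was the lowest library for this class. Without it 19 of 37 were higher, where 377 of all 13093 genes were. With library size scaling 3 were, where 70 of all 12988 genes were.

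The other complexes lay close by. Complexes II and III had a median of 0.91 (1 of 14 higher), complex IV 1.09 (3 of 13 higher) and ATP synthase 0.96 (4 of 19 higher). These shares were 7.14%, 23.1% and 21.1%, where 1.64% of all genes were higher. Atp5g3, a subunit of the membrane ring of ATP synthase, stood at 1176, 1532 and 1461 CPM against 526 in the input. Uqcrb of complex III (1.43 ± 0.30) and Cox7b of complex IV (1.22 ± 0.18) were higher. Cox6a2, the isoform of heart and muscle, was the single lower gene, at 0.130, 0.250 and 0.193 CPM against 6.02. Its IP levels were near the floor of 3 reads, so it passed the filter through the input alone. Nothing is read from its call. Mitochondrial ribosomal proteins had a median of 0.73 with 5 of 77 higher, 76 of 77 above 0 and Mrpl46 at 1.41 ± 0.12, and the import genes of the Tomm and Timm families 0.62 with 1 of 27 higher.

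Taken as 1 group, the 200 measured genes of the respiratory chain, mitochondrial ribosome and import lists held 2.50%, 3.25% and 2.66% of gene reads in IP 1, 2 and 4 and 1.67% in the input. In this group 22 genes were higher and 1 lower, where 1.64% of all genes were higher. The 22 became 47 without IP 1 and 4 with library size scaling. Over all genes, 377 of 13093 were higher without IP 1 and 70 of 12988 with library size scaling. The cocaine set had 90 of 199 higher and 0 lower, with a median of 1.09, where 3.78% of all 12643 genes were higher. For complex I alone the cocaine medians were 1.35, 1.61, 1.36, 1.37 and 1.47 in IP 1 to 5, and for complex IV 1.31, 1.74, 1.37, 1.34 and 1.36. The saline and cocaine comparisons share no library but use different references, whole input in one and the RNA left after the pull-down in the other.

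The following housekeeping classes had medians between those of the respiratory chain complexes and the all-gene median. Proteasome subunits had a median of 0.67, with 40 of 44 above 0 and library medians from 0.67 to 0.76, but 0 were higher, and Psmb10, an immunoproteasome subunit, was lower (-1.75 ± 0.12). Glycolytic enzymes had a median of 0.57. Aldoc, the brain aldolase found mainly in astrocytes, was the only one called lower, of 4 with a ratio below 0, at 62.8, 9.12 and 29.0 CPM against 256 in the input. Core splicing proteins of the snRNP and LSm families had a median of 0.47 (4 of 56 higher), and RNA polymerase and general transcription factors 0.37 (1 of 112 higher, 0 lower). Heat shock proteins and cochaperones lay at 0.48, with 1 of 83 higher and 3 lower (1.20% and 3.61%). Of all measured genes 1.64% were higher and 11.6% lower.

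Cytosolic ribosomal proteins, whose messenger RNAs are short and known for translation that depends on growth signals, were near the all-gene level. Their median was 0.07 over 79 genes, with library medians of -0.12, 0.35 and 0.05. None was called higher or lower, where 1.64% and 11.6% of all genes were. The highest member was Rpl15 at 0.77 and the lowest Rpl9 at -1.12 ± 0.23, with Rpl9 at 0.649, 1.18 and 0.658 CPM. As a share of gene reads the class came to 0.28%, 0.37% and 0.31% in IP 1, 2 and 4 and 0.37% in the input. These genes have near-identical processed copies in the genome, and how shared reads were counted is not given in the sources used here, so their values are uncertain. Rpl10a, the protein that carries the tag, stood at 3.02, 3.43 and 3.02 CPM against 4.14, and was not called. In the cocaine set the class median was 0.48.

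**Figure D4:**
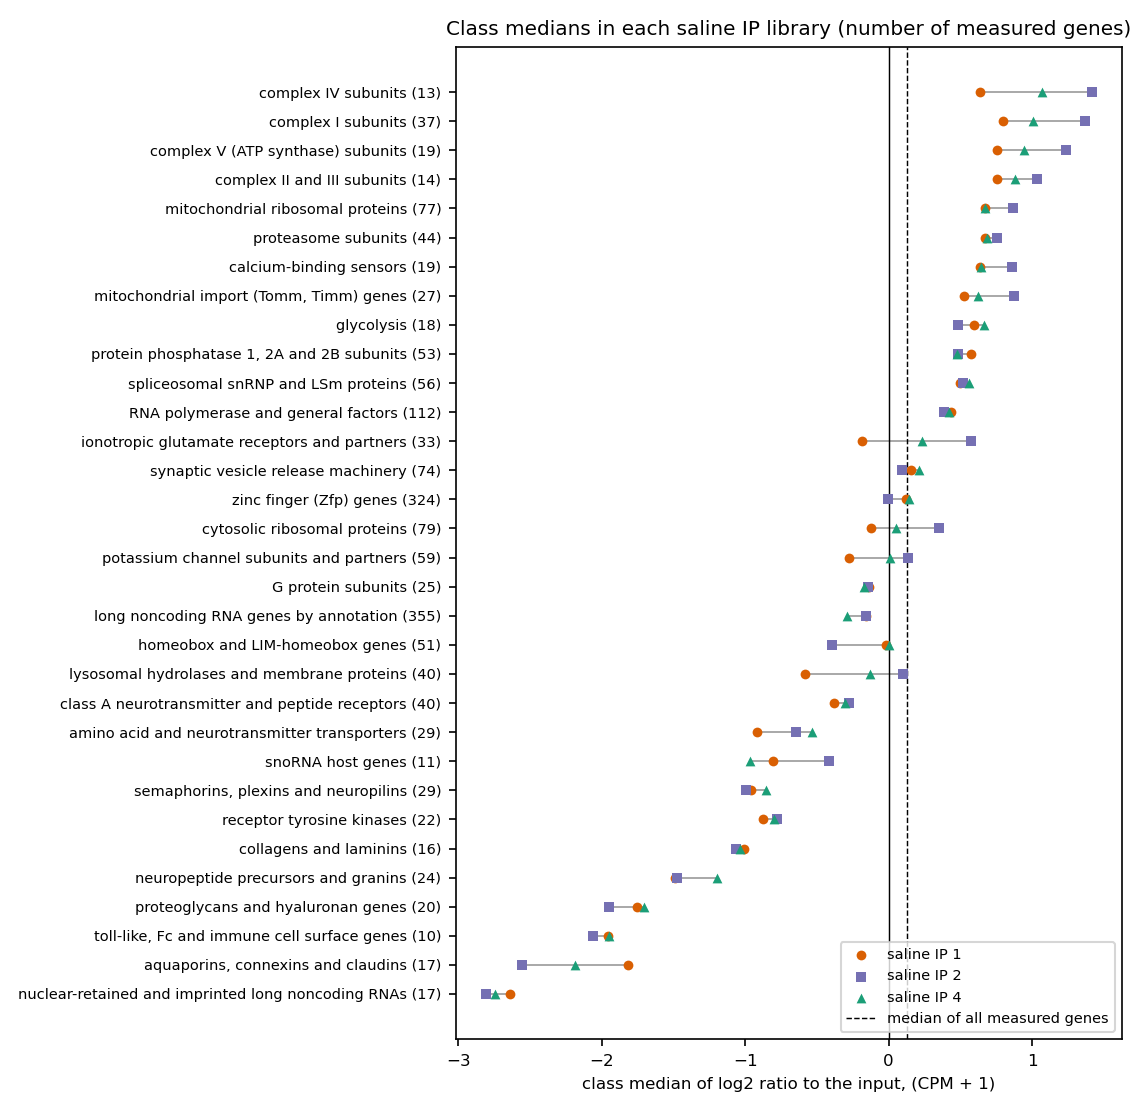
Class median of the log2 ratio to the input for 32 gene classes, ordered by their median, with 1 symbol for each of the 3 saline IP libraries, the number of measured genes in brackets and a dashed line at the all-gene median of 0.13. The respiratory chain classes lie near 1, potassium channels and cytosolic ribosomal proteins near 0 and the matrix, junction and nuclear RNA classes below -1, and IP 1 is the leftmost symbol for the respiratory chain classes.

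Classes of transcription genes differed in their medians, with histone genes at 0.61 (22 of 24 above 0) and core clock genes at 0.55 (18 of 22 above 0). The 324 measured zinc finger genes of the Zfp family had a median of 0.08, with 3 higher and 11 lower, so 0.93% and 3.40% against 1.64% and 11.6% of all genes. Zfp804a stood at 254, 183 and 195 CPM against 77.6 in the input (1.42 ± 0.25). Homeobox genes were spread more widely, with 0 of 51 higher and 16 lower. Zeb2, a homeodomain repressor of glia and interneurons, was at 18.1, 3.94 and 14.9 CPM against 177. Sp9, a zinc finger factor needed for indirect-pathway neurons and 1 of their markers, was among the highest at 88.6, 77.1 and 95.3 CPM against 18.2 (2.19 ± 0.15). Rxrg, a retinoid receptor of the striatum, was higher (1.31 ± 0.23), and Rorb, a nuclear receptor of the clock, lower (-4.10 ± 0.90).

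Noncoding RNAs held the lowest values. Malat1, a nuclear RNA (chr19:5795690-5802672), stood at 251, 552 and 365 CPM against 24128 in the input, 65.1-fold lower by the mean ratio of -6.02 ± 0.57. Meg3, an imprinted RNA (chr12:109541001-109571726), stood at 66.3, 93.3 and 79.1 CPM against 3592 (-5.49 ± 0.24). Of 17 measured nuclear-retained and imprinted RNAs 12 were lower (70.6%) and 0 higher, where 11.6% and 1.64% of all genes were. As a group these RNAs took 3.38% of the input reads and 0.09% to 0.12% of the IP reads. Malat1 and Meg3 made up most of that input share. Miat (-4.26 ± 0.43) and Kcnq1ot1 (-3.96 ± 0.18) were also among the 15 lowest named genes. Peg13, at 0.56, was the highest of the 17. The cocaine set had the same counts, 12 of 17 lower and 0 higher, where 9.74% of all genes were lower.

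Long noncoding RNAs as annotated were much less uniform than this short list. The 355 measured genes had a median of -0.18, with 4 higher and 62 lower. These shares were 1.13% and 17.5%, where 1.69% and 10.5% of 11895 coding genes were. Their share of reads was 0.48% to 0.55% in the IP libraries and 3.84% in the input. Malat1 and Meg3, at 501209 and 74626 of 18408782 input gene reads, made up most of the input share. The share thus says little about the other members. Host genes of small nucleolar RNAs, spliced transcripts that carry these RNAs in introns, had a median of -0.73. Of 11 measured, 0 were higher and 4 lower (36.4%), where 1.64% and 11.6% of all genes were. Snhg11 stood at 50.6, 45.3 and 36.4 CPM against 1197 (-4.74 ± 0.24), while Gas5 (-0.49) and Snhg1 (-0.01) were not called. The list median was between -0.97 and -0.41 in the 3 libraries.

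Gene models named only by a sequence record were a set noticed in the data. Its 597 measured models had a median of -0.35, with 5 higher and 165 lower (0.84% and 27.6%, where 1.64% and 11.6% of all genes were), and took 1.01% to 1.06% of IP reads and 7.11% of input reads. The lowest of these models stood at 66.5, 91.2 and 125 CPM in the IP libraries against 42116 CPM in the input, the largest difference of all measured genes. It alone held most of the input reads of the set. What kind of RNA it is was not tested.

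Transcript length went with the ratio across all 11895 coding genes. In the shortest of 5 equal groups, with a median length of 1280 bases, the median ratio was 0.45, and in the following groups it was 0.23, 0.12, 0.08 and -0.08, the last at a median of 6670 bases. The order held in each library, from 0.36, 0.58 and 0.41 in the shortest group to -0.09, -0.15 and -0.02 in the longest. The number of genes called higher fell from 94 (3.95%) in the shortest group to 9 (0.38%) in the longest, each of 2379 genes. The number called lower went from 189 (7.94%) to 287 (12.1%). Of all 11895 coding genes 1.69% were higher and 10.5% lower, so the lower share of the longest group was near that of all coding genes. Across genes the Spearman correlation of the ratio with transcript length was -0.27 (-0.21, -0.32 and -0.22 in IP 1, 2 and 4, which share the input, and -0.32 in the cocaine set). It was -0.23 for coding length and 0.10 for GC content.

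Classes of short transcripts differed among themselves. Within the shortest group 33 complex I genes had a median of 1.09, 50 mitochondrial ribosomal proteins 0.74, 29 proteasome subunits 0.80 and 68 cytosolic ribosomal proteins 0.13. The 2106 genes of that group outside the short-protein lists had a median of 0.42. Fragment length or RNA quality by library was not measured here, and its part in the length relation was not tested.

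**Figure D5:**
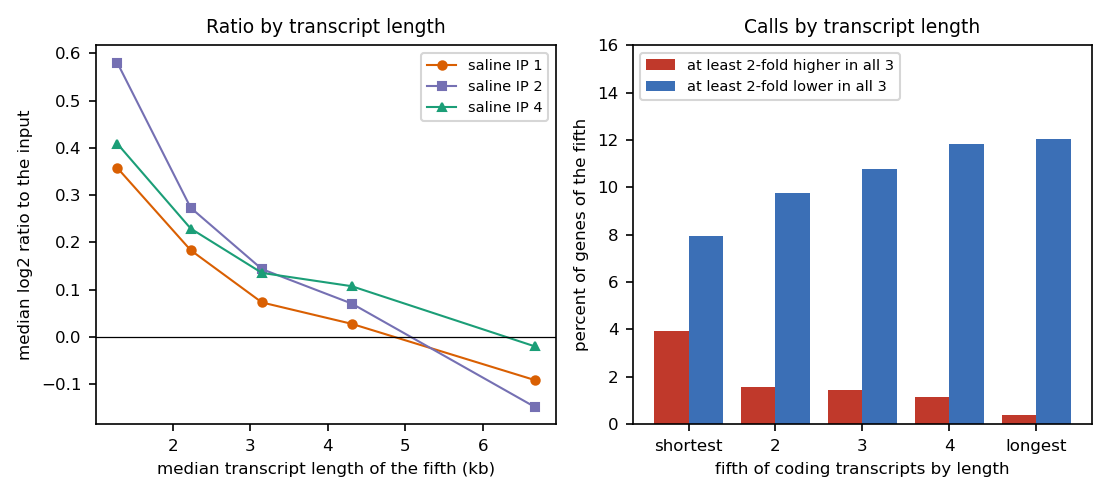
Left, median log2 ratio to the input of 5 equal groups of coding genes against the median transcript length of the group in kb, with 1 line for each saline IP library. Right, percent of genes in each group called higher (red) and lower (blue) in all 3 libraries. The ratio falls with length in every library, and the share called higher falls from 3.95% to 0.38%.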

How the data were processed

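Whole-striatum RNA of the mouse line Drd2-TRAP CP101 was profiled. Per the labels' protocols, an antibody against EGFP bound to Protein L beads pulled down the tagged polysomes, and an Agilent Nanoprep kit was used on the RNA. The authors deposited raw read counts per gene for each library. STAR 2.0.0e, HTSeq and mm10 are named per the submitters' processing notes. For the HTSeq version, the gene annotation and the strand setting the entry is: not given in the sources used here. Thus overlapping or near-identical genes are uncertain (120 of 304 named genes overlap another gene model). Lanes come from the names of the deposited count files.

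The 5 special counters name no gene and were left out. Counts were scaled with edgeR 4.0.16 (TMM, R 4.3.3), and a prior of 1 CPM was added before the log2 ratio. At 3 reads, the floor, a library stood at 0.0974 to 0.144 CPM, for counting error only. Replicates differed beyond counting noise (chi-square per degree of freedom 35.0 to 95.0). Positions and lengths come from GENCODE M21 on GRCm38, which matched 12303 of 12902 measured genes, and promoters from RefSeq. The steps were tested on simulated data.

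Members and 120 lists were chosen with earlier results of these data known. The naming rule takes Drd2, Adora2a and Penk, then the 15 highest and 15 lowest genes of 5 CPM or more outside the marker lists, ranked by whichever IP library lay nearest the input. It skips models without an established symbol (18 among the lowest) and ribosomal copies, and adds up to 2 genes per direction and list and the genes around Drd2. Genes around other markers, Trf, Calm2, Pde10a, Peg13, Gas5, Snhg1, Rpl10a, Rpl15 and Ndufab1 were named after their values were seen. Alternatives were library size or DESeq2 1.42.0 scaling, Rn45s left out, priors of 0.1 and 5 CPM, a minimum of 5 CPM, no filter, and each IP library left out. Grouping genes by hydrophobic segments of their proteins was intended and was not done, since protein sequences were not used here.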

Additional observations from a re-analysis of the deposited data

Results flagged for a closer look

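In the cocaine set, the median log2 ratio of complex IV subunits against the unbound library was 1.74 in cocaine IP 2, apart from the other 4 libraries, which lay between 1.31 and 1.37. Groups of 5 libraries were looked at for 18 gene lists, and chance sets about 1 in 20 groups apart in this way. The saline IP group has 3 libraries and was not examined for such outliers.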

How the results depend on the processing

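None of the named genes called higher or lower changed sign under the alternatives run. With library size alone, 70 genes were higher, all genes had a median of -0.094, the shortest and longest transcript groups 0.23 and -0.31, potassium channels -0.26, Zfp genes -0.13 and long noncoding RNAs -0.39. With DESeq2 size factors the all-gene median was 0.088. With a prior of 5 CPM, 125 genes were higher and 781 lower. With a minimum of 5 CPM, 660 were lower, the all-gene median was 0.24, the longest group -0.016 and long noncoding RNAs -0.036. Without a filter the all-gene median was -0.068 and the shortest group 0.080. Leaving out 1 IP library gave 325 to 377 higher genes, since fewer libraries then had to pass, -0.12 to -0.0018 for the longest group, 0.060 to 0.18 for Zfp genes and -0.26 to -0.18 for long noncoding RNAs. Of the named genes in the report, Irf4, Cacnb2 and Cacna1g lost their call with a prior of 5 CPM and Cacnb2 with DESeq2 size factors. No paired analysis was possible because the single input library cannot be matched by number to the IP libraries. The single input limits every ratio: its own spread between libraries is not known.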
